A study of Homo sapiens with 12 samples.

Results

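The genes described here carry glucose into the cell, break it down to pyruvate and set what becomes of the pyruvate. They are 35 genes chosen by name for their known roles, of 51141 gene symbols in the count table. They comprise glucose and lactate transporters, the glycolytic enzymes with their isozymes, the enzymes that make fructose 2,6-bisphosphate, lactate dehydrogenase, and the carriers, kinases and subunits that decide whether pyruvate enters the mitochondrion. Of the 35, 32 had enough counts to be tested. The others, PFKFB2, PDK3 and PDK4, had at most 6, 5 and 4 counts in any library and are described by those counts only.

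Messenger RNA was sequenced from EA.Hy926, a human endothelial line derived from umbilical vein cells by fusion with the lung carcinoma line A549, so every group carries the genome of a hybrid tumour-derived line. There were 4 groups of 3 libraries. Control cells received no agent and were kept at normal oxygen. Hypoxia cells were kept in 1% oxygen for 8 h. TEPA, a polyamine that chelates copper, was given at 50 µM for 16 h, after which the cells spent a further 8 h at normal oxygen (TEPA) or in 1% oxygen (TEPA+hypoxia). The study asks how copper bears on transcription driven by HIF-1, the factor that accumulates when oxygen is low. The labels do not say whether replicates were separate cultures, so p-values measure only the spread between these libraries.

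Glycolysis turns each glucose into pyruvate in the cytosol and yields ATP without oxygen. Endothelial cells draw much of their ATP from it even when oxygen is present. In low oxygen, HIF-1 is known to bind the core letters ACGTG or GCGTG near many of these genes and raise their transcription. It is also known to raise PDK1, a kinase that switches off pyruvate dehydrogenase and so diverts pyruvate towards lactate.

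The start-site regions of the members are shown because they are where such binding is best known. RefSeq windows (GRCh38) were at hand for 32 of the 35 members, 58 windows in all, and the 250 bases before each start site were searched for ACGTG and GCGTG on both strands. SLC2A3, PFKFB2 and SLC16A1 had no window. A match was found in 34 of the 58 member windows (58.6%), against 43.2% of all 35116 windows. The members' windows were also richer in G and C, with a median of 68.4% against 58.0%, and both motifs are made mostly of those bases. CACGTG, in which ACGTG is read on both strands at once, stood in 9 member windows (15.5%) and in 6.35% of all windows. A match describes the letters only and is not a binding site. In the sequences that follow, written 5′ to 3′ in the direction of the gene, capitals mark the matches. The first is the stretch before the second start site of HK2 (chr2:74834920-74835169, plus strand), the window with the most matches of any that no GENCODE 29 exon covers. The next is the one before a RefSeq start site of GAPDH (chr12:6535014-6535263, plus strand), the member with the highest level. By the gene bounds of GENCODE 29 this stretch lies inside GAPDH, outside its exons, and not upstream of the gene. The stretches of HK2, ENO2 and PFKFB4 and the second LDHA site also lie inside their genes. The short ones show 10 bases either side of a match for ENO2 (chr12:6914452-6914476, plus strand), PFKFB4 (chr3:48556955-48556979, minus strand) and LDHA (chr11:18394369-18394393 and chr11:18394467-18394491, plus strand).
HK2: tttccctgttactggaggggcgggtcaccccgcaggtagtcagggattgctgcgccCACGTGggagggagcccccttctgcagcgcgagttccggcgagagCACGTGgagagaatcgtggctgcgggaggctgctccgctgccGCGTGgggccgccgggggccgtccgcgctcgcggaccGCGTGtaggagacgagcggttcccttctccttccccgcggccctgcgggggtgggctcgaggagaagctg
GAPDH: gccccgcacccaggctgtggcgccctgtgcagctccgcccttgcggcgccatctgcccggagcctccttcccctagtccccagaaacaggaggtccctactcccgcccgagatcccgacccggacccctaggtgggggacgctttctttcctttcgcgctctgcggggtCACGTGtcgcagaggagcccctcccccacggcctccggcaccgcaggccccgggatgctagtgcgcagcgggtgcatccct
ENO2: ccgcgctcgtACGTGcgcctccgcc
PFKFB4: agttgggcatGCGTGgtcggaggcc
LDHA, first site: ctcccagcgcACGTGgagcagtctg
LDHA, second site: cccgactcacACGTGggttcccgca
The HK2 window holds 6 matches, counting each strand, and the GAPDH window 2. SLC2A1, whose response to low oxygen was among the clearest, had no match in its window, and DLAT, which fell, had 3.

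Libraries held 13406858 to 24778944 counts. Values are CPM, the usual counts-per-million unit, on library totals scaled by TMM (the trimmed mean of M-values). The floor of 3 counts lay between 0.118 and 0.267 CPM and covers counting error only. The libraries hypoxia 2 and hypoxia 3 stood apart. The share of counts in ribosomal protein genes was 9.87% and 8.52% there and between 3.14% and 5.03% in the other 10 libraries. The members' own share was 3.64% and 3.66%, and between 2.24% and 2.93% elsewhere. Their TMM factors, 0.772 and 0.838 against 1.03 to 1.08, raise all their CPM further. Of 19 endothelial markers, 17 were measured, led by ENG, ICAM2, EGFL7 and CDH5, while CLDN5 and EMCN were at or under the floor. Of 14 epithelial markers, 5 were tested, led by the keratins KRT7, KRT18 and KRT8. CDH1, ELF3, ESRP1, SFTPB and NKX2-1 were at or under the floor. The 14 summed, almost wholly through these keratins, to 18191 and 15544 CPM in hypoxia 2 and 3 against 5444 to 7693 CPM elsewhere. The endothelial sum was 9123 and 8122 CPM there against 4465 to 5214 CPM, but the markers were split. Of the 17, 7 lay above all other libraries in both hypoxia 2 and 3, among them ENG, ICAM2 and EGFL7, and 6 lay below: PECAM1, CDH5, TEK, KDR, FLT1 and ERG. CDH5 was at 274 and 377 CPM against 579 to 773 CPM, and TEK at 2.28 and 3.65 CPM, below the 32.7 to 82.0 CPM elsewhere. Markers of fibroblasts and mural cells summed to at most 107 CPM, most of it RGS5, and leukocyte markers to at most 204 CPM, most of it CD68. PTPRC, CD3E, COL3A1, DCN and LUM were at or under the floor. RGS5, 1 of 3 tested in its list, lay below all other libraries in hypoxia 2 and 3, at 34.5 and 40.5 CPM. CD68, 1 of 2 tested in its list, lay above all others there, at 200 and 185 CPM. The part of these shifts in the members' changes was not tested. Results for hypoxia are therefore given with and without hypoxia 2 and 3. Without them the group is 1 library, which the fit assumes to vary like the other groups. In RNA from a whole culture, fewer cells making a transcript and less of it per cell cannot be told apart.

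In control cells, the pathway was dominated by the enzymes after the split of the 6-carbon sugar. Per kilobase of exon, GAPDH stood highest, at 3164 ± 212 CPM per kb (SD, n = 3), followed by PKM at 1265 ± 66.7, ENO1 at 1171 ± 79.5 and LDHB at 1123 ± 52.7 CPM per kb. The SDs of PKM and ENO1 overlapped, as did those of ENO1 and LDHB, and LDHA came next at 899 ± 26.8 CPM per kb. The glucose transporter SLC2A1 was measured at 17.1 ± 1.58 CPM per kb and HK2 at 4.80 ± 0.379 CPM per kb. The regulators PFKFB4 and PDK1 reached 2.08 ± 0.457 and 0.512 ± 0.0714 CPM per kb, and the enzyme ALDOC 0.480 ± 0.0905 CPM per kb.

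Low oxygen without the chelator was accompanied by higher transcript levels along most of the pathway. In hypoxia against control, 17 of the 32 tested members were called higher, where 29.4% of all 14447 genes tested were higher, and 5 were called lower, where 27.8% of all genes were (edgeR quasi-likelihood F-test, adjusted p under 0.05). The members' median difference was 0.37 on the log2 scale, against -0.01 over all genes. Without hypoxia 2 and 3 the median was 0.21 and 4 members were called higher, SLC2A1, PFKFB4, ALDOA and ENO2, where 0.283% of 15195 genes were. The 1 called lower was DLAT, where 0.23% of genes were. Fitted by edgeR on the hypoxia and control libraries alone, no member and no other gene was called. By level, all 3 hypoxia libraries lay above all 3 controls for 18 members (27.4% of all genes) and below them for 5 (28.2% of all genes). In the fit of all libraries 25 members had an unadjusted p under 0.05, and DESeq2 called 24 and limma-voom 22. The same counts over all 14447 genes were 9119, 8699 and 8323. Hypoxia 1 on its own lay above all 3 controls for 23 of the 32 members (35.7% of all genes) and below them for 5 (35.6% of all genes).

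With the chelator, fewer members were called in low oxygen when all libraries were fitted. In TEPA+hypoxia against TEPA, 1 member was called higher, ENO2, where 0.0623% of all genes were, and none was called lower, where 0.0346% were. At an unadjusted p under 0.05, 7 members were higher and 2 lower, where 680 and 430 of all genes were. DESeq2 called 3 members (ENO2, SLC2A1 and PFKFB4) and limma-voom 1, where they called 145 and 12 of all genes. Without hypoxia 2 and 3, whose spread enters the shared error, 4 members were called higher, SLC2A1, HK2, PFKFB4 and ENO2, where 1.32% of genes were, and again none lower, where 0.842% were. In that fit the hypoxia group is 1 library, so the numbers called without and with the chelator cannot be set side by side. With each pair of groups fitted alone, 0 members were called without the chelator, where 0 of all genes were. With it 4 members were called higher, where 205 of all genes were, and 0 lower, where 150 were. The members' median difference was -0.05 with all libraries. By level, all 3 TEPA+hypoxia libraries lay above all 3 TEPA libraries for 9 of the 32 members (12.5% of all genes). They lay below them for 7 (18% of all genes).

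**Figure D1:**
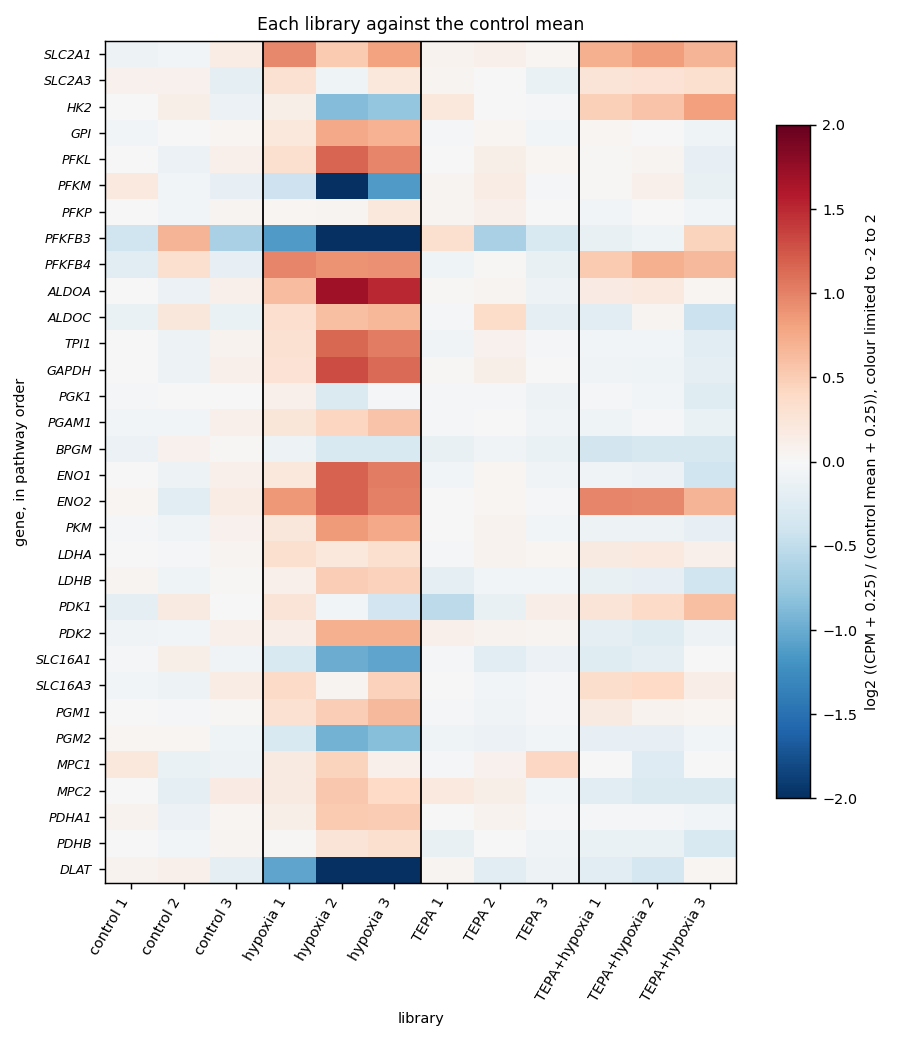
Each cell is the log2 ratio of a library's CPM to the control mean, both with 0.25 CPM added, for the 32 tested genes in pathway order (rows) and the 12 libraries (columns). SLC2A1, PFKFB4 and ENO2 are red in all 3 hypoxia and all 3 TEPA+hypoxia libraries, while ALDOA, TPI1, GAPDH and ENO1 are reddest in hypoxia 2 and 3.

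SLC2A1 encodes GLUT1, the main glucose transporter of endothelial cells. It was measured at 63.1, 65.8 and 75.1 CPM in control 1 to 3, and at 132, 98.2 and 119 CPM in hypoxia 1 to 3. TEPA 1 to 3 had 71.6, 73.3 and 69.6 CPM, and TEPA+hypoxia 1 to 3 had 111, 122 and 109 CPM. Every library at 1% oxygen lay above every library at normal oxygen. In hypoxia SLC2A1 rose 1.71-fold over control (log2 0.78 ± 0.12 SE, edgeR adjusted p = 0.00601), and by log2 0.96 without hypoxia 2 and 3 (adjusted p = 0.00261). Its difference in TEPA+hypoxia against TEPA was log2 0.67 ± 0.12 (adjusted p = 0.0824), which was called without hypoxia 2 and 3 at log2 0.69 (adjusted p = 0.000877). SLC2A3, which encodes GLUT3, differed less and was not called in either comparison: its library values lay between 31.7 and 45.4 CPM, with log2 0.15 ± 0.12 in hypoxia (0.30 without hypoxia 2 and 3) and log2 0.31 ± 0.12 in TEPA+hypoxia against TEPA.

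HK2 encodes the inducible hexokinase that traps glucose in the cell. Its level was 28.5, 30.8 and 26.3 CPM in control 1 to 3, and 30.8, 15.5 and 16.6 CPM in hypoxia 1 to 3. In TEPA 1 to 3 it was 33.1, 28.7 and 27.8 CPM, and in TEPA+hypoxia 1 to 3 it was 39.8, 42.3 and 50.6 CPM. The TEPA+hypoxia libraries were the highest of all 12, and hypoxia 2 and 3 the lowest. Against TEPA the difference was log2 0.57 ± 0.22 (edgeR adjusted p = 0.548), called without hypoxia 2 and 3 at log2 0.58 (adjusted p = 0.0141). In hypoxia against control it was log2 -0.44 ± 0.22 (adjusted p = 0.113), and log2 0.11 with hypoxia 1 alone. Without hypoxia 1, HK2 was called lower at log2 -0.86 (adjusted p = 2.24e-05), so its direction in hypoxia turned on which libraries entered. The HK2 interaction was called with all libraries (log2 1.00, adjusted p = 0.0312), but not without hypoxia 2 and 3 (log2 0.46, adjusted p = 0.126) or after the GC and length correction (log2 0.59, adjusted p = 0.0541). The ubiquitous hexokinase HK1 was listed at 0 in all 12 libraries, which is not read as absence.

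Glucose 6-phosphate can also be exchanged with glycogen through the phosphoglucomutase PGM1. PGM1 was higher in hypoxia by log2 0.49 ± 0.11 (adjusted p = 0.00601), at 34.0 to 35.6 CPM in controls and 43.0 to 55.0 CPM in hypoxia. PGM2 fell: it had 82.1, 81.3 and 75.2 CPM in control 1 to 3 and 64.1, 41.1 and 43.9 CPM in hypoxia 1 to 3. It stood at 75.3, 73.3 and 77.0 CPM in TEPA 1 to 3 and at 71.2, 70.9 and 76.9 CPM in TEPA+hypoxia 1 to 3. Both moved in hypoxia 1 too, by log2 0.30 and -0.31 against control, but neither was called without hypoxia 2 and 3 (adjusted p = 0.148 and 0.120).

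**Figure D2:**
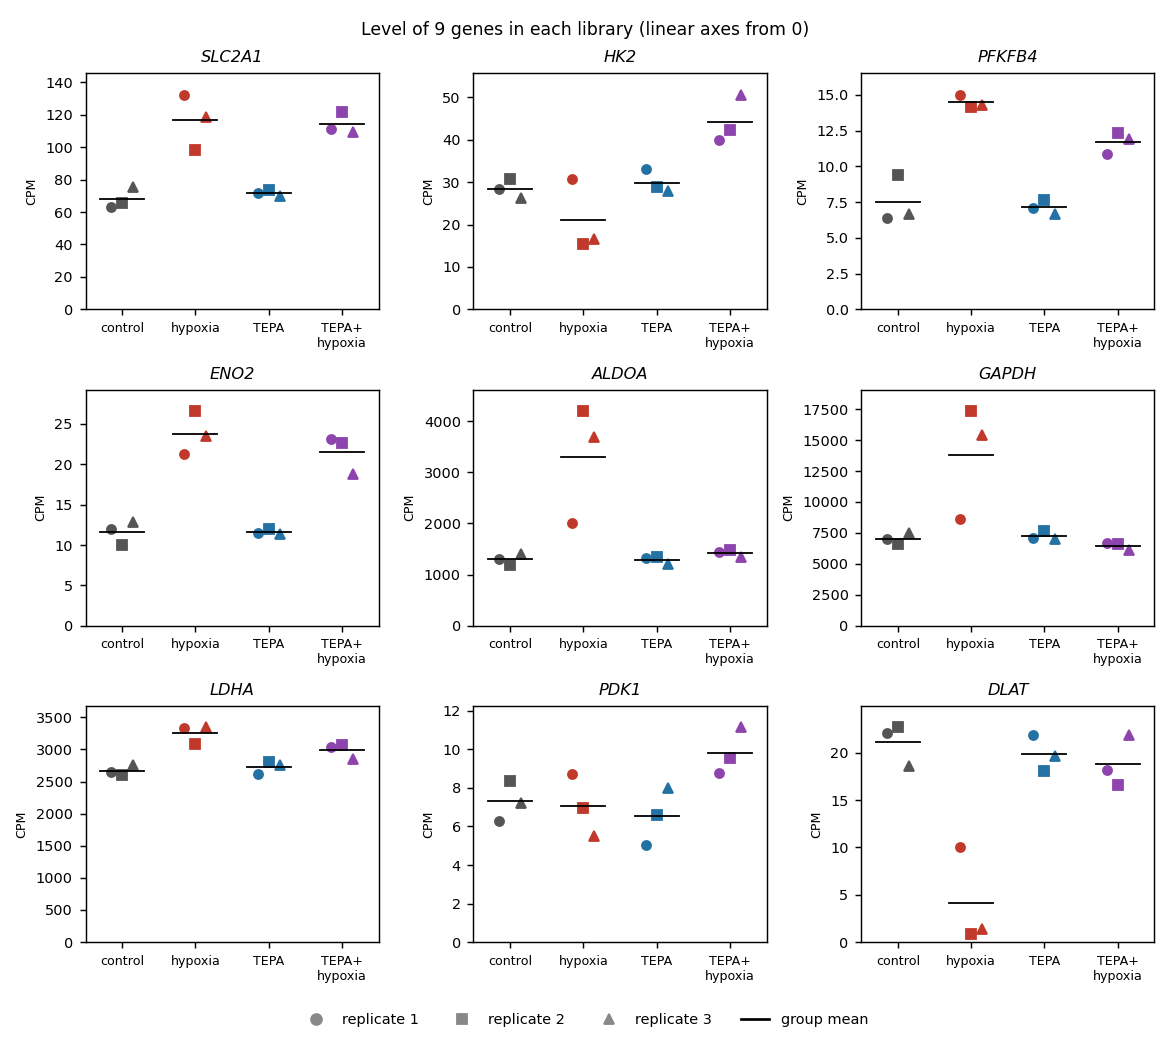
CPM of 9 genes in each library on linear axes from 0, with a symbol for each replicate and a line at each group's mean. SLC2A1, PFKFB4 and ENO2 are raised in both low-oxygen groups; HK2 and PDK1 are highest in TEPA+hypoxia; ALDOA, GAPDH and DLAT differ most in hypoxia 2 and 3.

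At the committed step, the isozymes of phosphofructokinase moved in opposite directions in hypoxia. PFKL, the liver-type subunit, was at 173, 158 and 185 CPM in control 1 to 3 and at 215, 385 and 339 CPM in hypoxia 1 to 3. It was at 171, 186 and 176 CPM in TEPA 1 to 3 and at 175, 178 and 153 CPM in TEPA+hypoxia 1 to 3. All 3 hypoxia libraries exceeded all others, hypoxia 1 by the least. PFKL rose by log2 0.87 ± 0.17 in hypoxia (adjusted p = 0.00601), and stood at log2 0.32 without hypoxia 2 and 3 (adjusted p = 0.143).

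PFKM, the muscle-type subunit, fell in hypoxia (log2 -1.06 ± 0.30, adjusted p = 0.0121). It had 17.7, 14.8 and 13.8 CPM in control 1 to 3 and 11.5, 3.67 and 6.86 CPM in hypoxia 1 to 3. Its levels in TEPA 1 to 3, 16.1, 17.2 and 15.1 CPM, overlapped those in TEPA+hypoxia 1 to 3, 15.7, 16.5 and 13.8 CPM. The call was lost without hypoxia 2 and 3, at log2 -0.42 (adjusted p = 0.185). PFKP, the platelet-type subunit and the most counted of the 3, was not called in hypoxia (log2 0.10, and 0.04 without hypoxia 2 and 3) and stayed within 469 to 566 CPM in all libraries. GPI, which makes fructose 6-phosphate, was at 372, 385 and 397 CPM in control 1 to 3 and at 447, 654 and 620 CPM in hypoxia 1 to 3. The TEPA libraries had 376, 395 and 370 CPM and the TEPA+hypoxia libraries 395, 389 and 363 CPM. It rose by log2 0.58 ± 0.13 in hypoxia (adjusted p = 0.00613) and was uncalled without hypoxia 2 and 3 at log2 0.22 (adjusted p = 0.174).

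Fructose 2,6-bisphosphate activates phosphofructokinase, and PFKFB4 is one of the bifunctional enzymes that make and break it. PFKFB4 had 6.40, 9.36 and 6.66 CPM in control 1 to 3, and 15.01, 14.2 and 14.3 CPM in hypoxia 1 to 3. It had 7.06, 7.63 and 6.71 CPM in TEPA 1 to 3, and 10.9, 12.4 and 11.9 CPM in TEPA+hypoxia 1 to 3. The low-oxygen libraries all exceeded the normal-oxygen ones, and the 3 hypoxia libraries agreed closely although hypoxia 2 and 3 stood apart for other genes. In hypoxia PFKFB4 rose 1.94-fold (log2 0.96 ± 0.16, adjusted p = 0.00601), and by log2 1.01 without hypoxia 2 and 3 (adjusted p = 0.0436). In TEPA+hypoxia it differed from TEPA by log2 0.72 ± 0.15 (adjusted p = 0.189), called without hypoxia 2 and 3 at log2 0.73 (adjusted p = 0.0225).

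PFKFB3, the family member best known from endothelial cells, was barely counted. It had 13, 27 and 8 counts in control 1 to 3, and 4, 0 and 0 counts in hypoxia 1 to 3. TEPA 1 to 3 had 29, 8 and 11 counts, and TEPA+hypoxia 1 to 3 had 13, 14 and 23 counts. It was called lower in hypoxia (adjusted p = 0.0140), a call that ended without hypoxia 2 and 3 (adjusted p = 0.281), without control 2 (adjusted p = 0.0564) and without hypoxia 2 alone (adjusted p = 0.0506). PFKFB2 had 2 to 6 counts in the controls and 0 in the hypoxia libraries.

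In the lower trunk, the aldolase, isomerase, dehydrogenase, enolase and pyruvate kinase transcripts rose together in hypoxia, most of all in hypoxia 2 and 3. ALDOA, the aldolase that splits the sugar into triose phosphates, was at 1305, 1192 and 1395 CPM in control 1 to 3 and at 2000, 4197 and 3688 CPM in hypoxia 1 to 3. TEPA 1 to 3 had 1318, 1348 and 1216 CPM and TEPA+hypoxia 1 to 3 had 1448, 1489 and 1336 CPM. Each hypoxia library exceeded every other library. ALDOA rose 2.54-fold (log2 1.34 ± 0.21, adjusted p = 0.00601), and by log2 0.62 without hypoxia 2 and 3 (adjusted p = 0.0197). ALDOC, the brain-type aldolase, was scarce, with group means of 0.834 to 1.53 CPM, and was not called in hypoxia (log2 0.64, adjusted p = 0.0655, and log2 0.41 without hypoxia 2 and 3).

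TPI1, which interconverts the triose phosphates, had 1414, 1307 and 1477 CPM in control 1 to 3 and 1726, 3106 and 2855 CPM in hypoxia 1 to 3. It had 1334, 1484 and 1358 CPM in TEPA 1 to 3 and 1346, 1344 and 1202 CPM in TEPA+hypoxia 1 to 3. GAPDH, the dehydrogenase often used as a reference transcript, had 6995, 6588 and 7530 CPM in control 1 to 3 and 8594, 17344 and 15426 CPM in hypoxia 1 to 3. For both genes hypoxia 1 lay just above the controls while hypoxia 2 and 3 stood far above them. GAPDH was at 7115, 7656 and 6991 CPM in TEPA 1 to 3 and at 6674, 6599 and 6122 CPM in TEPA+hypoxia 1 to 3, so that every TEPA+hypoxia library was below every TEPA library. Without TMM scaling, GAPDH took 1.34% and 1.29% of all counts in hypoxia 2 and 3 against 0.647% to 0.883% in the other libraries. TPI1 rose by log2 0.87 ± 0.18 and GAPDH by log2 0.97 ± 0.20 in hypoxia (adjusted p = 0.00601 for each). Without hypoxia 2 and 3 they stood at log2 0.30 and 0.29, and neither was called (adjusted p = 0.128 and 0.114). GAPDH has 62 and PGAM1 13 pseudogenes named after them in GENCODE 29, and how reads were shared among copies is not given in the sources used here.

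PGK1, which makes the first ATP of the pathway and is a textbook HIF-1 target, was not called in hypoxia: its libraries ran from 435 to 444 CPM in controls and from 360 to 475 CPM in hypoxia, overlapping (log2 -0.06 ± 0.11, adjusted p = 0.626, and log2 0.11 without hypoxia 2 and 3). After the GC and length correction PGK1 was called higher, at log2 0.60 (adjusted p = 0.00613). PGAM1, the next mutase, had 218, 219 and 242 CPM in control 1 to 3 and 269, 306 and 336 CPM in hypoxia 1 to 3. It had 220, 226 and 216 CPM in TEPA 1 to 3 and 214, 221 and 206 CPM in TEPA+hypoxia 1 to 3. PGAM1 rose by log2 0.42 ± 0.10 (adjusted p = 0.00635) and was uncalled without hypoxia 2 and 3 at log2 0.25 (adjusted p = 0.154). The GC and length correction also ended the PGAM1 call and turned its sign, at log2 -0.011. BPGM, which makes the side product 2,3-bisphosphoglycerate, was not called by edgeR (log2 -0.23 in hypoxia, -0.10 without hypoxia 2 and 3, and -0.22 in TEPA+hypoxia against TEPA), with each TEPA+hypoxia library below each TEPA library. BPGM was called lower in hypoxia without hypoxia 1 (edgeR adjusted p = 0.00269), with upper quartile scaling (adjusted p = 0.0488) and by DESeq2 (adjusted p = 0.0240).

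The enolases differed from each other. ENO1, the ubiquitous enolase, had 2799, 2633 and 3015 CPM in control 1 to 3 and 3246, 6382 and 5711 CPM in hypoxia 1 to 3. It had 2720, 2901 and 2692 CPM in TEPA 1 to 3 and 2681, 2590 and 2141 CPM in TEPA+hypoxia 1 to 3. ENO1 rose by log2 0.86 ± 0.20 in hypoxia (adjusted p = 0.00671), with log2 0.20 left without hypoxia 2 and 3 (adjusted p = 0.323).

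ENO2, the neuronal-type enolase, was the only member whose rise edgeR called in both low-oxygen comparisons with all libraries. DESeq2 called ENO2, SLC2A1 and PFKFB4 in both. ENO2 values were as follows. It was at 11.97, 9.99 and 12.8 CPM in control 1 to 3 and at 21.3, 26.6 and 23.5 CPM in hypoxia 1 to 3. In TEPA 1 to 3 it was at 11.5, 11.97 and 11.4 CPM and in TEPA+hypoxia 1 to 3 at 23.1, 22.7 and 18.8 CPM. No library at 1% oxygen overlapped one at normal oxygen. The rise was 2.05-fold in hypoxia (log2 1.04 ± 0.14, adjusted p = 0.00601), and log2 0.88 without hypoxia 2 and 3 (adjusted p = 0.0436). In TEPA+hypoxia it was 1.85-fold (log2 0.89 ± 0.14, adjusted p = 0.0403), and log2 0.90 without hypoxia 2 and 3 (adjusted p = 0.00200). That call with all libraries sat close to the threshold: it held in 2 of the 12 fits that left out 1 library, those without hypoxia 1 or without hypoxia 2. It was lost with RLE size factors (adjusted p = 0.0516), with no filter (adjusted p = 0.0642) and with the replicate block (adjusted p = 0.202).

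PKM, pyruvate kinase, had 4125, 4006 and 4434 CPM in control 1 to 3 and 4903, 7518 and 7118 CPM in hypoxia 1 to 3. It had 4163, 4417 and 4035 CPM in TEPA 1 to 3 and 3917, 3897 and 3732 CPM in TEPA+hypoxia 1 to 3. Like GAPDH, its TEPA+hypoxia libraries were all below its TEPA libraries, by an uncalled log2 -0.13 ± 0.14. In hypoxia it rose by log2 0.64 ± 0.14 (adjusted p = 0.00614), and stood at log2 0.23 without hypoxia 2 and 3 (adjusted p = 0.148). The table does not separate the PKM1 and PKM2 splice forms.

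**Figure D3:**
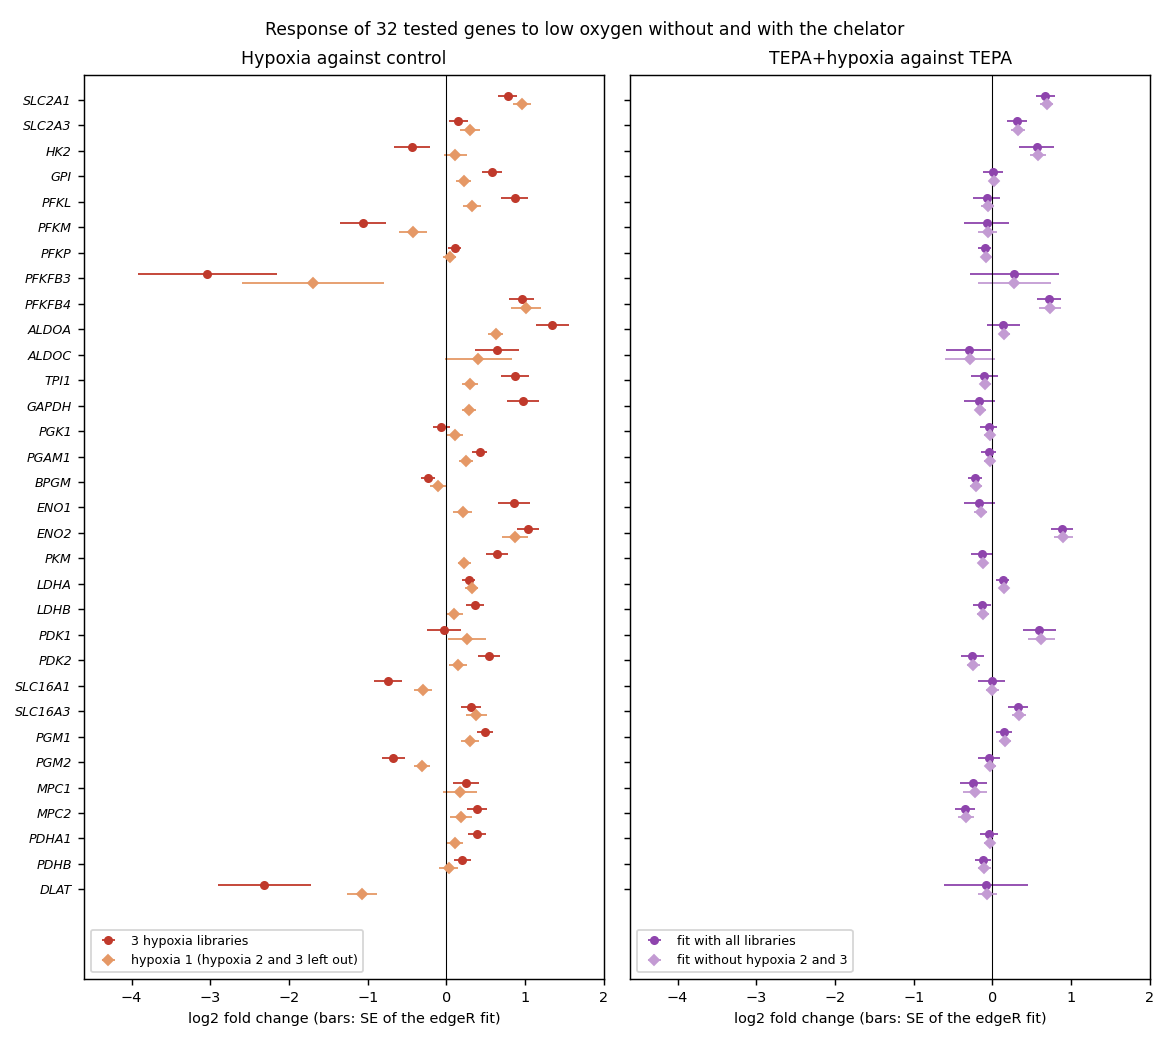
Log2 fold change with its SE for the 32 tested genes in hypoxia against control (left) and TEPA+hypoxia against TEPA (right), fitted with all libraries (circles) and without hypoxia 2 and 3 (diamonds). On the left the diamonds of ALDOA, TPI1, GAPDH and ENO1 lie far closer to 0 than the circles, while those of SLC2A1, PFKFB4, ENO2 and LDHA stay near them.

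Pyruvate leaves the pathway as lactate through lactate dehydrogenase and the monocarboxylate transporters. LDHA, the subunit of the lactate-forming enzyme, was at 2644, 2604 and 2757 CPM in control 1 to 3 and at 3338, 3078 and 3344 CPM in hypoxia 1 to 3. In TEPA 1 to 3 it was at 2622, 2797 and 2756 CPM and in TEPA+hypoxia 1 to 3 at 3034, 3070 and 2854 CPM. Both low-oxygen groups lay above their counterparts with no overlap, by small amounts. LDHA rose by log2 0.29 ± 0.08 in hypoxia (adjusted p = 0.0139). Its size was kept without hypoxia 2 and 3, at log2 0.32, where it was not called (adjusted p = 0.0749). The call was also lost without control 1, control 2 or hypoxia 3 (adjusted p = 0.0526 to 0.058). Against TEPA the difference was log2 0.13 ± 0.08 (adjusted p = 0.783).

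LDHB, the subunit that favours the return of lactate to pyruvate, had 1843, 1686 and 1816 CPM in control 1 to 3 and 1907, 2510 and 2459 CPM in hypoxia 1 to 3. It had 1574, 1716 and 1711 CPM in TEPA 1 to 3 and 1609, 1599 and 1359 CPM in TEPA+hypoxia 1 to 3. LDHB rose by log2 0.36 ± 0.12 in hypoxia (adjusted p = 0.0225), through hypoxia 2 and 3: without them the difference was log2 0.10 (adjusted p = 0.618). Leaving out control 1, control 2, hypoxia 2 or hypoxia 3 alone also ended the LDHB call (adjusted p = 0.0508 to 0.0945), as did the GC and length correction (log2 0.14, adjusted p = 0.147). SLC16A3 encodes MCT4, the lactate exporter of glycolytic cells, and narrowly missed the threshold in hypoxia (39.7 to 47.2 CPM in controls, 44.1 to 58.8 CPM in hypoxia, log2 0.31 ± 0.13, adjusted p = 0.0552). It was log2 0.38 without hypoxia 2 and 3 (adjusted p = 0.135). SLC16A3 was called without control 3 (adjusted p = 0.0455), without hypoxia 2 (adjusted p = 0.0276), by DESeq2 (adjusted p = 0.0400) and with a filter of 1 CPM in 3 libraries (adjusted p = 0.0470). In TEPA+hypoxia its 47.0 to 56.1 CPM lay above the 40.9 to 43.1 CPM in TEPA (log2 0.32 ± 0.13, adjusted p = 0.545).

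SLC16A1 encodes MCT1, which carries lactate in either direction. It was at 146, 163 and 143 CPM in control 1 to 3 and at 122, 75.3 and 72.1 CPM in hypoxia 1 to 3. The level was 147, 128 and 138 CPM in TEPA 1 to 3 and, in TEPA+hypoxia 1 to 3, 128, 132 and 151 CPM. All 3 hypoxia libraries were below all others. SLC16A1 fell in hypoxia (log2 -0.74 ± 0.18, adjusted p = 0.00710), and its difference was log2 -0.30 without hypoxia 2 and 3 (adjusted p = 0.159) and -0.15 after the GC and length correction (adjusted p = 0.0921).

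The kinases that inhibit pyruvate dehydrogenase did not move as a group. PDK1 had 6.31, 8.34 and 7.24 CPM in control 1 to 3 and 8.73, 6.98 and 5.52 CPM in hypoxia 1 to 3, which overlap (log2 -0.03 ± 0.22, adjusted p = 0.900, and log2 0.26 without hypoxia 2 and 3). After the GC and length correction PDK1 was called higher in hypoxia, at log2 0.88 (adjusted p = 0.00822). It had 5.02, 6.59 and 8.01 CPM in TEPA 1 to 3 and 8.80, 9.57 and 11.1 CPM in TEPA+hypoxia 1 to 3, without overlap. That difference, log2 0.60 ± 0.21, was not called (adjusted p = 0.504, and 0.0765 without hypoxia 2 and 3). PDK2, the more abundant kinase by counts, was at 30.6, 30.9 and 34.5 CPM in control 1 to 3 and at 35.3, 52.3 and 52.5 CPM in hypoxia 1 to 3. In TEPA 1 to 3 it was at 34.4, 33.7 and 33.2 CPM and in TEPA+hypoxia 1 to 3 at 27.8, 27.1 and 30.0 CPM. PDK2 rose by log2 0.54 ± 0.14 in hypoxia (adjusted p = 0.00985) and was uncalled without hypoxia 2 and 3 at log2 0.14 (adjusted p = 0.479). PDK3 and PDK4 had at most 5 counts in a library.

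Among the subunits of pyruvate dehydrogenase, DLAT, the acetyltransferase of the complex, stood out. It had 22.1, 22.7 and 18.6 CPM in control 1 to 3 and 10.0, 0.882 and 1.43 CPM in hypoxia 1 to 3, the last values resting on 12 and 16 counts. It had 21.9, 18.1 and 19.7 CPM in TEPA 1 to 3 and 18.2, 16.6 and 21.8 CPM in TEPA+hypoxia 1 to 3. DLAT was thus lower in all 3 hypoxia libraries than anywhere else, and it was the only member called lower with and without hypoxia 2 and 3. It fell to 0.201 of the control level (log2 -2.31 ± 0.59, adjusted p = 0.00865), with log2 -1.08 ± 0.19 left without those libraries (adjusted p = 0.0302). GENCODE 29 places 4 genes on the opposite strand within it, among them PIH1D2, and the strand setting of the counts is not given in the sources used here.

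PDHA1, the catalytic alpha subunit, went the other way. It was at 120, 104 and 117 CPM in control 1 to 3 and at 123, 164 and 161 CPM in hypoxia 1 to 3. TEPA 1 to 3 had 113, 120 and 112 CPM and TEPA+hypoxia 1 to 3 had 112, 112 and 109 CPM. The rise of log2 0.39 ± 0.11 in hypoxia (adjusted p = 0.0141) came down to log2 0.11 without hypoxia 2 and 3 (adjusted p = 0.537). The PDHA1 call was lost without control 2, hypoxia 2 or hypoxia 3 alone (adjusted p = 0.061 to 0.0645). PDHB, the beta subunit, was not called in hypoxia (log2 0.20 ± 0.10, adjusted p = 0.106, and log2 0.03 without hypoxia 2 and 3), except without hypoxia 1 (adjusted p = 0.0177).

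MPC1 and MPC2 form the carrier that takes pyruvate into the mitochondrion. MPC2 had 34.6, 30.5 and 39.1 CPM in control 1 to 3 and 39.4, 50.8 and 46.0 CPM in hypoxia 1 to 3. It had 39.8, 37.9 and 33.5 CPM in TEPA 1 to 3 and 30.1, 28.5 and 28.5 CPM in TEPA+hypoxia 1 to 3. MPC2 was therefore above control in hypoxia (log2 0.39 ± 0.13, adjusted p = 0.0244, and log2 0.18 with adjusted p = 0.461 without hypoxia 2 and 3) and below TEPA in TEPA+hypoxia, where log2 -0.35 ± 0.13 was not called (adjusted p = 0.512). The MPC2 call was lost without control 1, control 2, hypoxia 2 or hypoxia 3 alone (adjusted p = 0.0688 to 0.107). MPC1 was not called in either comparison (log2 0.17 in hypoxia without hypoxia 2 and 3), with library values between 7.92 and 12.9 CPM.

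Shares within an isozyme family do not depend on how libraries are scaled. With 3 libraries against 3 the exact permutation test cannot give a p below 0.10, so no share could pass 0.05, and p-values were adjusted over the 17 shares in each comparison. ENO2 made up 0.409 ± 0.027% of enolase counts in control and 0.418 ± 0.0063% in TEPA (SD, n = 3). In TEPA+hypoxia 1 to 3 it made up 0.855%, 0.868% and 0.869%, above every TEPA library (two-sided exact p = 0.1, adjusted 0.243). In hypoxia 1 the share was 0.652%, and in hypoxia 2 and 3 it was 0.415% and 0.410%, at the control level, and ENO1 was also at its highest in those libraries. The share of SLC2A1 in the counts of SLC2A1 and SLC2A3 was 65.2 ± 4.45% in control, 74.3 ± 0.454% in hypoxia, 66.7 ± 1.09% in TEPA and 72.0 ± 1.32% in TEPA+hypoxia. It was higher in low oxygen with no overlap in either comparison (exact p = 0.1 each).

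The LDHA share of lactate dehydrogenase counts was 59.97 ± 0.929% in control, 62.1 ± 0.401% in TEPA and 66.3 ± 1.28% in TEPA+hypoxia, with no overlap between these groups (exact p = 0.1 for TEPA+hypoxia against TEPA). Hypoxia 1 lay at 63.6%, above the controls, and hypoxia 2 and 3 at 55.1% and 57.6%, below them. PDK1 made up 16.1 ± 3.38% of PDK counts in TEPA and 25.5 ± 1.56% in TEPA+hypoxia, without overlap (exact p = 0.1). It made up 19.7%, 11.7% and 9.52% in hypoxia 1 to 3 against 18.5 ± 2.35% in control. The share of PGM1 among PGM1 and PGM2 was 30.5 ± 1.40% in control and 40.2%, 54.6% and 55.6% in hypoxia 1 to 3. SLC16A3 made up 22.2 ± 2.62% of the counts of both lactate transporters in control and 31.2%, 36.9% and 44.9% in hypoxia 1 to 3. In these last pairs all 3 hypoxia libraries, hypoxia 1 included, lay outside the control range. In both, the partner that gained share had the higher exon GC content: PGM1 47.7% against PGM2 39.9%, and SLC16A3 62.7% against SLC16A1 43.5%. Shares are free of scaling but not of GC content, and its part in them was not tested.

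**Figure D4:**
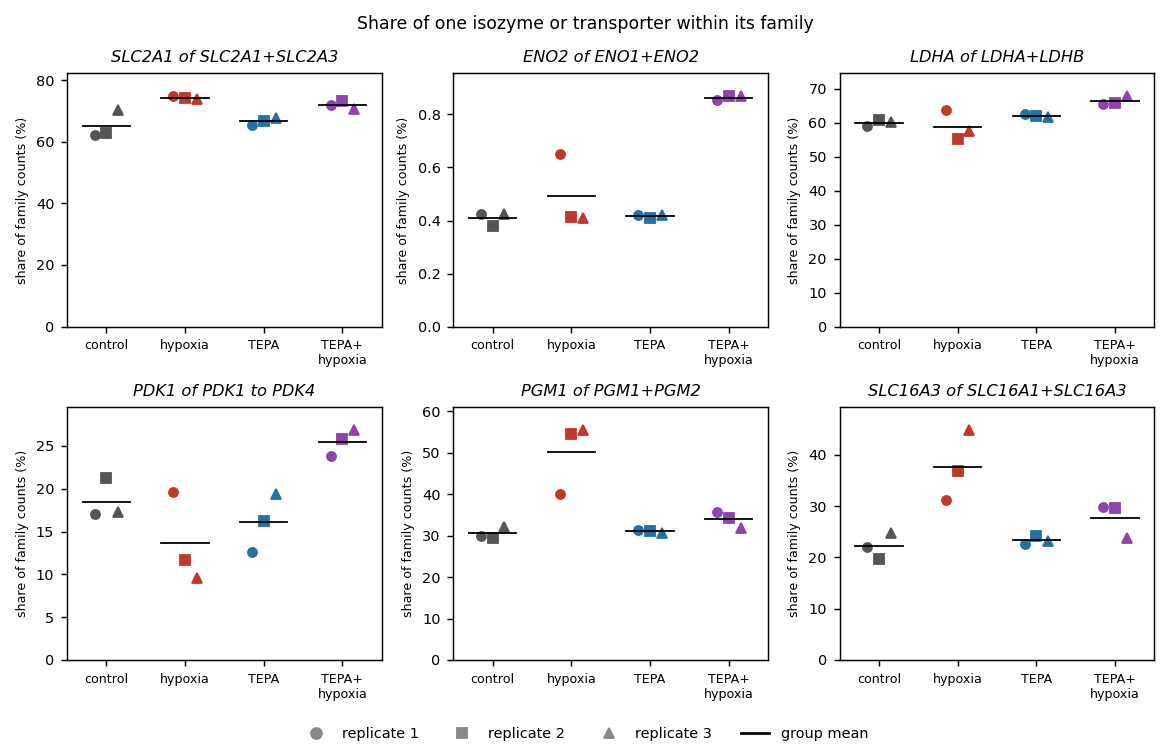
Share of one transcript in the counts of its family (percent, axes from 0) in each library, with a symbol for each replicate and a line at each group's mean. The ENO2 share is near 0.87% in all 3 TEPA+hypoxia libraries and 0.65% in hypoxia 1, against about 0.4% in hypoxia 2 and 3; the LDHA and PDK1 shares of hypoxia 2 and 3 lie below those of hypoxia 1.

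The chelator alone changed none of these genes detectably. In TEPA against control, no member was called by edgeR, DESeq2 or limma-voom, none had an unadjusted p under 0.05, and the edgeR call rate over all genes was 0% (higher) and 0% (lower). The members' log2 differences had a median of -0.01. That of SLC2A1 was 0.07 ± 0.12, of HK2 0.07 ± 0.22, of PFKFB4 -0.07 ± 0.16, of ENO2 0.00 ± 0.14 and of LDHA 0.03 ± 0.08. Of the 32 members only PGK1 had groups that did not overlap, lower where 6.92% of all genes were and with none higher where 6.64% were, at 410 to 429 CPM in TEPA against 435 to 444 CPM in control.

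Between the low-oxygen groups, TEPA+hypoxia against hypoxia had 6 members called higher, where 30.9% of all genes were, and 15 called lower, where 30.6% were. SLC2A1, SLC2A3, PFKFB4, ENO2 and LDHA were not called in that fit. Correcting for GC content and exon length changed the split to 4 (19.2% of genes) and 17 (31.5% of genes), and then called LDHA lower (log2 -0.46, adjusted p = 0.00275) and SLC2A3 too (adjusted p = 0.0161, log2 -0.33). Without hypoxia 2 and 3, HK2 and DLAT were higher, where 7.98% of genes were, and ALDOA, TPI1, GAPDH, PGAM1, ENO1 and PKM were lower, where 7.17% were. The lower ones differed by log2 -0.48 (ALDOA) to -0.32 (PGAM1) in that fit, HK2 by 0.53 and DLAT by 0.92. These contrasts share libraries with hypoxia against control and TEPA+hypoxia against TEPA and are not independent of them.

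The interaction tests whether the response to low oxygen differed with the chelator. With all libraries, 5 members had a higher response with TEPA (17.3% of all genes) and 12 a lower one (21.5% of all genes), and the split was 1 (5.25% of genes) and 10 (16% of genes) after the GC and length correction. Without hypoxia 2 and 3 no gene was called, 0% in either direction, while 12 of the 32 members, and 4117 of the 15195 genes, had an unadjusted p under 0.05. No member was called either in the fits without control 1, control 2, hypoxia 3, TEPA 2 or TEPA+hypoxia 3. The interaction was log2 -0.10 ± 0.17 for SLC2A1, -0.24 ± 0.22 for PFKFB4, -0.15 ± 0.19 for ENO2 and -0.15 ± 0.12 for LDHA, none of them called with all libraries. LDHA was called after the GC and length correction, at log2 -0.52 (adjusted p = 0.0288). For ALDOA it was log2 -1.21 ± 0.29 (adjusted p = 0.0236), and -0.47 without hypoxia 2 and 3 (adjusted p = 0.0695).

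The members' differences in the hypoxia libraries went with the base composition of their transcripts, and the part of base composition in them was not tested. Over the 32 tested members, Spearman's rho between exon GC content and the log2 ratio to the control mean was 0.48 in hypoxia 1, 0.63 in hypoxia 2 and 0.71 in hypoxia 3, given as a description over genes of 1 library. It ran from -0.33 to 0.47 in the control libraries and from -0.04 to 0.43 in those with TEPA. The trend was not particular to the members. Over all tested genes with a known GC content, rho was 0.38, 0.52 and 0.55 in hypoxia 1 to 3. It ran from -0.44 to 0.49 in the controls and from -0.36 to 0.38 in the libraries with TEPA. Corrected for GC content and length, SLC2A3 was called higher in hypoxia at log2 0.60 (adjusted p = 0.00565), as were PGK1 and PDK1, while PGAM1, LDHB and SLC16A1 lost their calls. That left 18 members higher, where 27.4% of 12992 genes were, and 4 lower, where 18.2% were. SLC2A1, PFKFB4, ALDOA, ENO2 and LDHA kept theirs, at log2 0.81, 0.82, 0.67, 0.90 and 0.61. In TEPA+hypoxia against TEPA the same correction left ENO2 called at log2 0.93 (adjusted p = 0.00416) and added SLC2A1 at log2 0.70 (adjusted p = 0.0137), where 0.154% of genes were higher and 0.0308% lower.

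**Figure D5:**
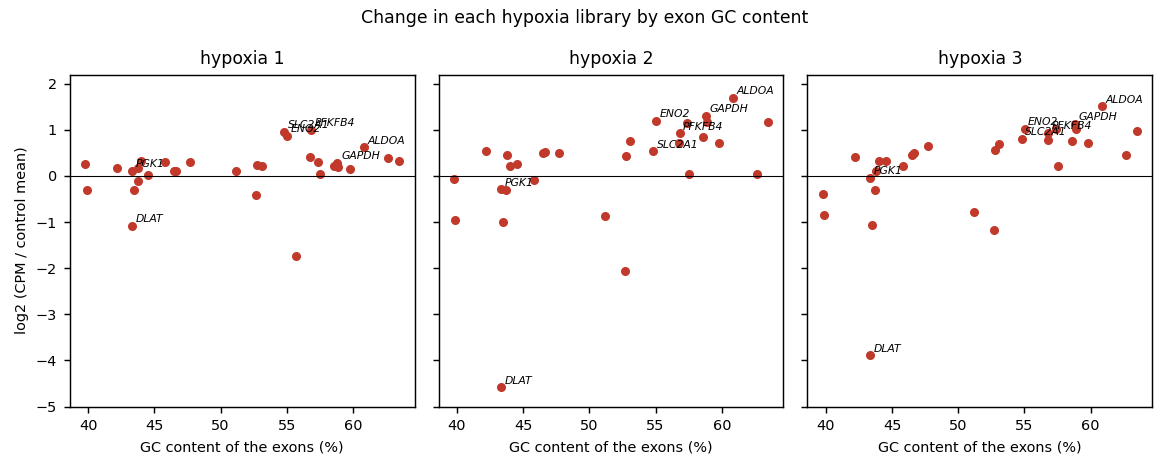
Log2 ratio of CPM to the control mean against the GC content of the gene's exons (percent) for the tested genes in hypoxia 1, 2 and 3, 1 panel each. Points slope upwards in all 3 panels and more steeply in hypoxia 2 and 3, where DLAT lies far below the rest; PFKFB3 has 0 counts there and is not drawn.

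Genes next to the pathway were read from lists of neighbouring routes, each count to be set beside the 29.4% of all genes called higher and the 27.8% called lower in hypoxia. Among 18 tested enzymes of other glycolytic, gluconeogenic and shuttle steps, 8 were higher and 5 lower in hypoxia, with ENO3 (log2 1.13), MDH2 (0.83), BSG (0.89), the chaperone of lactate transporters, and G6PC3 (0.60) having the smallest p. Of 7 tested transporters and hexose kinases, 3 were higher (KHK, the fructose kinase, 1.56; SLC2A8 1.02; SLC2A6 0.68) and 3 lower, among them SLC2A12 (-0.54). Of 12 tested pentose phosphate genes, 4 were higher and 3 lower, led by PGLS (1.55) and TALDO1 (1.04). Of the 8 tested genes that serve pyruvate dehydrogenase beside the members, 5 were lower and none higher, including PDPR (-0.82), PDP1, a phosphatase that reactivates the complex (-1.21), PDHX (-1.40) and DLD (-0.38).

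Against the same 29.4% and 27.8% of all genes, glycogen genes were called higher 3 times and lower 6 times of 21, with GSK3B (-0.71) and PGM2L1 (-0.79) first. Of 5 hexosamine genes 3 were lower, GFPT1 (-0.84), OGT (-0.75) and GNPNAT1 (-0.37). Of 5 serine genes 3 were higher and 1 lower, by -0.31 (PSAT1) to 0.32 (PHGDH). In the tricarboxylic acid cycle, 6 of 18 were higher and 3 lower, with ACO1 (-0.63), SUCLG1 (0.62), IDH3G (0.79) and CS (-0.45) first. None of these genes was called without hypoxia 2 and 3.

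Of the 9 tested regulators of glucose use, 2 were higher and 5 lower in hypoxia, where 29.4% and 27.8% of all genes were. EPAS1, which encodes HIF-2α, fell by 1.11 on the log2 scale, and HIF1A, which encodes the oxygen-labile subunit of HIF-1, by 2.06. They were the only genes of all these lists called in hypoxia without hypoxia 2 and 3, at log2 -0.71 (adjusted p = 0.0483) and -0.96 (adjusted p = 0.0327). In TEPA+hypoxia against TEPA no gene of any of the lists was called with all libraries (edgeR, DESeq2 and limma-voom), and 9 had an unadjusted p under 0.05. Without hypoxia 2 and 3, EPAS1 was called lower (log2 -0.49, adjusted p = 0.0225) and PPP1R3B, a glycogen-targeting subunit of protein phosphatase 1, higher (log2 0.47, adjusted p = 0.0365).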

How the data were processed

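The authors deposited a table of raw read counts per gene symbol for all 12 libraries. Per the labels' protocols the RNA was extracted with TRIzol, poly(A)-selected and made into directional libraries. The submitters' processing notes name HISAT2 2.1.0, DESeq and GRCh38. Which counter and annotation were used, and whether strand was, is not given in the sources used here. Libraries were grouped by their labels. Genes passing filterByExpr (14447, with 99.9% of counts) were fitted with edgeR 4.0.16 (R 4.3.3) by the quasi-likelihood F-test with TMM scaling over all 12 libraries, and p-values were adjusted by Benjamini-Hochberg over all genes tested, with calls at 0.05. The contrasts read were these: the effect of low oxygen without and with TEPA, of TEPA alone, of TEPA in low oxygen, and the interaction. DESeq2 1.42.0, limma 3.58.1 (voom), other scalings and filters, a replicate block, fits of only the groups compared, a GC and length correction by library (12992 genes, 89.9% of those tested), fits without hypoxia 2 and 3 and leave-one-out fits were the alternatives. Family shares were compared by the exact permutation test. Gene coordinates, lengths and GC come from GENCODE 29, to which 30966 symbols matched by name and 888 through an older symbol. The script was tested on simulated data. All 35 members are named, and from each neighbouring list at most the 4 called genes with the smallest p. The members and lists were chosen with earlier results of these data known.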

Additional observations from a re-analysis of the deposited data

Results flagged for a closer look

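For 17 members the response to low oxygen with TEPA differed from that without it by the test of the difference itself (edgeR interaction, all libraries, adjusted p from 0.0236 to 0.0482). In the same test 17.3% of all 14447 genes were called higher and 21.5% lower, so such calls were common among all genes. The log2 interaction was positive for HK2 (1.00), PFKFB3 (3.32, on few counts), SLC16A1 (0.73), PGM2 (0.63) and DLAT (2.24). It was negative along the trunk, for GPI (-0.57), PFKL (-0.94), ALDOA (-1.21), TPI1 (-0.97), GAPDH (-1.14), PGAM1 (-0.47), ENO1 (-1.03) and PKM (-0.76). At the pyruvate branch it was negative for LDHB (-0.49), PDK2 (-0.80), MPC2 (-0.74) and PDHA1 (-0.44). None of them was called without hypoxia 2 and 3, where the interaction kept its sign for each, and none in the fits without control 1, control 2, hypoxia 3, TEPA 2 or TEPA+hypoxia 3. The GC and length correction ended the calls of HK2, DLAT, SLC16A1, PGM2, PFKL, TPI1, ENO1, LDHB and PGAM1, and turned the sign of PGAM1 (0.042). It added calls of LDHA (-0.52), PGK1 (-0.73) and PGM1 (-0.71).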

How the results depend on the processing

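In hypoxia against control, 0 members were called in either direction when only those groups were fitted, and 4 higher and 1 lower without hypoxia 2 and 3; leave-one-out counts ran from 13 to 18 higher and 4 to 7 lower. In TEPA+hypoxia against TEPA, the 1 member called higher became 0 with RLE size factors, with no filter and with the replicate block, 2 with the GC and length correction, 3 with DESeq2, and 4 when only those groups were fitted or hypoxia 2 and 3 were left out; leave-one-out counts ran from 0 to 4. In TEPA+hypoxia against hypoxia, 2 were higher and 11 lower when only those groups were fitted, against 6 and 15 with all libraries. Leave-one-out counts there ran from 5 to 7 higher and 14 to 15 lower. For the interaction, 0 were called in either direction without hypoxia 2 and 3, 1 was higher with the GC correction, and 0 higher and 6 lower with that correction and the replicate block; leave-one-out counts ran from 0 to 7 higher and 0 to 14 lower. The GC correction, without and with the block, reversed PGK1 (0.60 and 0.60), PGAM1 (-0.011 and -0.012) and PDK1 (0.88 and 0.89) in hypoxia against control. In TEPA+hypoxia against hypoxia it reversed SLC2A3 (-0.33 and -0.33), PDK1 (-0.66 and -0.67) and SLC16A1 (-0.043 and -0.042), and in the interaction PGK1 (-0.73 and -0.73) and PGAM1 (0.042 and 0.043). The calls over all genes moved with these settings too. With only the groups compared fitted, no gene was called in hypoxia against control. Such fits called 205 genes higher and 150 lower in TEPA+hypoxia against TEPA, and 2204 and 2995 in TEPA+hypoxia against hypoxia. Leave-one-out fits called 2853 to 5085 genes higher and 2103 to 5538 lower in hypoxia against control. In TEPA+hypoxia against TEPA they called 0 to 153 higher and 0 to 101 lower. For TEPA+hypoxia against hypoxia they called 3133 to 5765 and 3487 to 5100, and for the interaction 0 to 5261 and 0 to 4497. Fewer samples or genes entered several of these fits, and otherwise the cause was not tested. The replicate numbers were not taken to pair the libraries. Same-numbered deviations in hypoxia and control correlated at 0.10, -0.34 and 0.32, and differently numbered ones at -0.46 to 0.42. With 3 libraries per group these values cannot settle whether the numbers mark pairs. With the replicate block, 17 members were higher and 5 lower in hypoxia against control, and 4 were higher and 10 lower in the interaction. Over all genes, that block left 3924 higher and 3770 lower in hypoxia against control, and 2020 and 2522 in the interaction. With no filter on low counts, LDHA, LDHB, MPC2 and PDHA1 lost their calls in hypoxia against control (adjusted p = 0.0609 to 0.116).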
